A study of Mus musculus with 11 samples.

Results

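The AP-1 and immediate early genes examined here are 10 of the 55486 genes in the deposited count table, taken by their symbols as deposited. They are the FOS family genes Fos, Fosb and Fosl2, the JUN family genes Jun, Junb and Jund, the stress-induced bZIP factor Atf3, the zinc finger factor Egr1, the nuclear protein gene Ier2 and the MAP kinase phosphatase Dusp1. All 10 passed the filter on low counts. The study sorted eosinophils from the blood of FVB/N mice carrying metastases of mammary tumours. On day 21 after treatment began, 7 mice had received cisplatin with antibodies against PD1 and CTLA4 (treated libraries 1 to 7) and 4 mice had received control antibody (control libraries 1 to 4). The design holds no group with cisplatin alone or with the antibodies alone, so the combination was compared as a whole. The sort kept live cells positive for CD45, CD11b and F4/80, negative for CD3, low in Ly6g and of high side scatter. Libraries were made by Smart-seq2, which copies whole transcripts from small amounts of RNA.

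AP-1 is a pair of bZIP proteins, most often a FOS with a JUN protein or 2 JUN proteins, that binds short DNA sites of the kind TGANTCA. Many of its genes, with Egr1, Ier2 and Dusp1, are immediate early genes. Existing factors switched on by MAP kinases transcribe them within minutes of a stimulus without new protein synthesis, and their mRNAs are short-lived. In granulocytes they respond to cytokines, adhesion and cell stress, and cell isolation itself is known to raise several of them.

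Promoter letters were read for motifs that these genes share. RefSeq promoter windows (GRCm38.p6) were used for 8 of the 10 genes, leaving out Egr1 and Ier2, whose promoters were not searched. In each window the 250 bases before the start site were searched on both strands. The letters TGACG, the core of the cyclic AMP response element bound by CREB and ATF factors, lay in the windows of 5 genes (Fos, Fosb, Junb, Atf3 and Dusp1), against 17.8% of 32851 windows in the table. The 8-letter form TGACNTCA lay in those of Jun and Dusp1, against 7.49% of windows. It includes TGACG wherever its N is G. No window of the 8 held TGANTCA (6.75% of windows), and GCGGGGGCG, a site of EGR factors, lay in those of Fosb and Fosl2 (2.57% of windows). The CArG box (CC, a run of A or T, then GG) lay in 0 of the 8 (1.47% of windows). As this box was rare in all windows, and nothing further upstream than 250 bases was searched, the 0 does not show that these genes lack it. TATAAA lay in that of Fos (12.4% of windows) and CCAAT in those of Jun and Junb (33.8% of windows). No motif searched lay in all 8 windows. The windows of Fos, Dusp1 and Junb are shown because these genes were among the most abundant members, and that of Jun because its order of libraries departed from theirs. Capitals mark TGACG, on either strand, and TGACNTCA.
Fos (chr12:85473640-85473889, strand +): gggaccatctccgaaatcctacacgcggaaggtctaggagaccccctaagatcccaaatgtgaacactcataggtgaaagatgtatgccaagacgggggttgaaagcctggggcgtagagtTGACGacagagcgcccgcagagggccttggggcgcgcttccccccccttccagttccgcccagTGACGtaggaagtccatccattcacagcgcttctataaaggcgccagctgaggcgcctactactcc
Dusp1 (chr17:26508473-26508722, strand -): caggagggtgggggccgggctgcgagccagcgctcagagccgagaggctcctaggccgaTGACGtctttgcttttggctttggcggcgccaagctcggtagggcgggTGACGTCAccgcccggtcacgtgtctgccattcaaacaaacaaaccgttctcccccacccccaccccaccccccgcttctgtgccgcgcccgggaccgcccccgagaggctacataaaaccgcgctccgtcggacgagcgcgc
Junb (chr8:84978749-84978998, strand -): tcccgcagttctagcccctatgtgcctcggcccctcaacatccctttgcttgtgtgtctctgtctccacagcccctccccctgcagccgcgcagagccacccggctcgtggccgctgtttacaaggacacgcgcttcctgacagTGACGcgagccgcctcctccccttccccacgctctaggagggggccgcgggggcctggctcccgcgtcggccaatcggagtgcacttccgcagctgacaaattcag
Jun (chr4:95052223-95052472, strand -): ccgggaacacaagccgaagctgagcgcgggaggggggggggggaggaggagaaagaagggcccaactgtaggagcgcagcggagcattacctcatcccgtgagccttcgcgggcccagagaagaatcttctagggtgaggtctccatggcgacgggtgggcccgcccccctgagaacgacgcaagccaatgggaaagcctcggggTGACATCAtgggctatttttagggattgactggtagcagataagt
Fos held TGACG starting 129 and 66 bases before its start, Junb 106 bases before, and Dusp1 191 bases before and again inside the full element TGACGTCA at 143 to 136 bases before its start. Jun held TGACATCA at 45 to 38 bases before its start. The Dusp1 window precedes the start of the usual short transcript, since the deposited gene reaches 53656 bases further upstream. The deposited Atf3 and Fosl2 genes likewise reach 34706 and 671 bases further upstream than the RefSeq starts used. The deposited Jund gene starts 1210 bases downstream of its RefSeq start, so its window may not describe the promoter of the gene as deposited. These matches are letters in a window, and the count table holds no measure of binding.

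The sorted cells carried the eosinophil transcripts Siglecf (493 ± 182 CPM, SD, n = 7, in treated and 592 ± 336 CPM, SD, n = 4, in control libraries) and Ccr3 (2820 ± 1240 and 3210 ± 1120 CPM), where CPM is counts per 1000000 scaled by TMM. Library totals ran from 3733156 to 8016658 counts. In controls 3 and 4 the 4 globin genes took 28.2% and 20.1% of counts, against 0.165% to 4.42% in the other libraries, and in them 10775 and 11263 genes were detected, against 12639 or more elsewhere. Summed markers of monocytes and macrophages, of the library total, ran from 2060 to 18100 CPM in treated and from 1010 to 12900 CPM in control libraries, with all 15 genes detected. Summed neutrophil markers ran from 5490 to 13500 CPM in treated and from 6200 to 12100 CPM in control libraries, beside eosinophil markers at 4260 to 11400 and 4820 to 11400 CPM. Summed B cell markers ran from 1470 to 9560 CPM in treated and from 559 to 4110 CPM in control libraries. The part of these other cell types in the results on the members was not tested. The header identifiers begin with 19 for every treated and 20 for every control library. Any difference that these digits mark cannot be told apart from the treatment.

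The comparison asked whether the combination treatment altered the expression of these genes in blood eosinophils. No member differed between the groups by the test, and the groups overlapped for every member. The 4 genes with the highest levels per length (Dusp1, Ier2, Junb and Fos) had log2 fold changes between -0.35 and 0.06. The largest fold changes were those of Egr1 (1.85 ± 1.35, SE) and Fosb (1.54 ± 1.68, SE), the members with the lowest levels per length.

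By edgeR's quasi-likelihood test with Benjamini-Hochberg adjustment over 11389 genes, 0 of 10 members were higher and 0 lower in treated libraries, with adjusted p from 0.811 (Fosl2) to 0.991 (Dusp1). The same test called 0% of all genes higher and 0% lower. At an unadjusted p under 0.05, 0 members and 6.82% of all genes stood out. Groups that do not overlap were found for 0 members and 0.94% of all genes. Of the members 6 had a fold change above 0, as had 51.8% of all genes, and the median was 0.14 for the members and 0.03 for all genes. DESeq2, which called 0.637% of the genes to which it gave an adjusted p, also called 0 members.

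**Figure D1:**
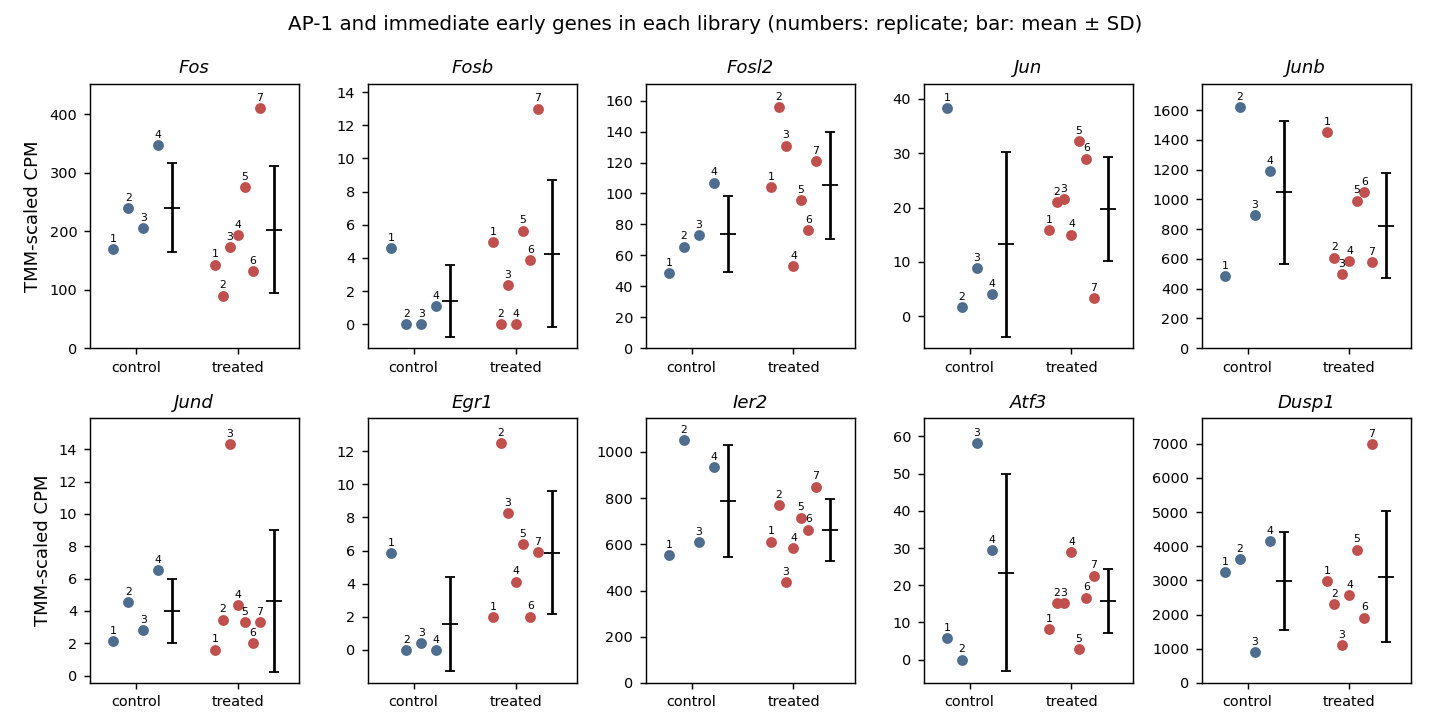
TMM-scaled CPM of each gene (vertical axes, linear) in the 4 control libraries (blue) and 7 treated libraries (red), with replicate numbers beside the points and the mean ± SD as black bars. In all 10 panels the groups overlap, and single libraries such as treated 7 for Fos and Dusp1 (411 and 7000 CPM) or control 3 for Atf3 (58.1 CPM) stand at an end.

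Per kilobase of exon, Dusp1 stood highest, at 939 CPM per kilobase in treated and 897 in control libraries. Ier2 (435 and 517) and Junb (357 and 456) followed, in an order that the spread between libraries does not settle. Fos came next at 85.9 and 102 CPM per kilobase. Fosl2 (10.8 and 7.60), Atf3 (7.29 and 10.8) and Jun (6.18 and 4.14) formed a lower tier, and Jund (2.77 and 2.40), Egr1 (1.31 and 0.348) and Fosb (0.682 and 0.226) the lowest. Levels of different genes are compared on this scale only; all CPM that follow are per gene.

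Of the FOS family, Fos (chromosome 12, 85473890 to 85477273, GRCm38, 4 exons), which encodes c-Fos and pairs with JUN proteins, stood at 170, 240, 205 and 347 CPM in controls 1 to 4. In treated libraries Fos ran from 89.9 to 411 CPM with a median of 173 CPM. All 4 controls lay inside the treated range, which treated 2 bounded below and treated 7 above. Between groups, Fos differed by -0.25 ± 0.36 on the log2 scale (SE; adjusted p = 0.948, edgeR), with a 95% interval from -1.01 to 0.52.

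Fosl2 (chromosome 5, 32135801 to 32157842), which encodes Fra-2, a FOS protein without the strong activation domain of c-Fos, stood at 48.6, 65.7, 73.3 and 107 CPM in controls 1 to 4. In treated libraries it ran from 53.1 to 156 CPM with a median of 104 CPM. Control 1 was the lowest of all 11 libraries and treated 2 and treated 3 the highest. Of the members, Fosl2 had the smallest p (log2 fold change 0.52 ± 0.31, SE, adjusted p = 0.811, edgeR). Its interval ran from -0.14 to 1.17. At 9.68 kb of exon it was the longest member, and once length and GC content were offset its log2 fold change was -0.01.

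Fosb (chromosome 7, 19302696 to 19310051), another FOS protein, was near the limit of detection. It stood at 4.57, 0, 0 and 1.09 CPM in controls 1 to 4, and from 0 to 13 CPM with a median of 3.85 CPM in treated libraries. Zero counts were found in controls 2 and 3 and in treated 2 and treated 4, where 3 counts would be 0.354 to 1.20 CPM. Treated 7, the highest library for Fos, was also the highest for Fosb. The log2 fold change of 1.54 was 0.94 without treated 7, 3.58 without control 1 and 0.04 with the replicate block, so its size is not well determined. Fosl1, which encodes Fra-1, had counts in treated 2 alone (1.74 CPM) and was not tested.

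Of the JUN family, Junb (chromosome 8, 84976910 to 84978718, 1 exon), whose protein activates less strongly than c-Jun on single AP-1 sites, stood at 485, 1620, 894 and 1190 CPM in controls 1 to 4. In treated libraries Junb ran from 497 to 1450 CPM with a median of 608 CPM. Control 2 was the highest and control 1 the lowest of the 11 libraries, so the control group spanned wider than the treated one. Junb had a log2 fold change of -0.35 ± 0.35 (SE; interval -1.10 to 0.40, adjusted p = 0.924, edgeR). It was 0.46 with the letters of the header identifiers as a covariate, a fit in which only treated 1 shares its letters with the controls.

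Jun (chromosome 4, 95049034 to 95052222, 1 exon), which encodes c-Jun, stood at 38.3, 1.70, 8.82 and 4.00 CPM in controls 1 to 4. In treated libraries it ran from 3.29 to 32.2 CPM with a median of 21.0 CPM. Control 1 was the highest of all libraries, while controls 2 to 4 lay below every treated library except treated 7. The log2 fold change was 0.56 ± 0.77 (SE; interval -1.08 to 2.21, adjusted p = 0.940, edgeR). Without control 1 it was 2.05, and without controls 3 and 4 it was 0.01. Junos, an antisense gene that overlaps Jun, had 5 counts over all libraries.

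Jund (chromosome 8, 70698949 to 70700616, 1 exon), often the JUN gene with the steadiest expression in resting cells, stood at 2.16, 4.53, 2.80 and 6.54 CPM in controls 1 to 4. It ran from 1.61 to 14.3 CPM with a median of 3.33 CPM in treated libraries. Only treated 3 was above 7 CPM. Without treated 3 the log2 fold change of Jund was -0.39 in place of 0.21 (0.21 ± 0.91, SE, adjusted p = 0.987, edgeR). Of the members it had the highest GC content, at 67.1%.

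**Figure D2:**
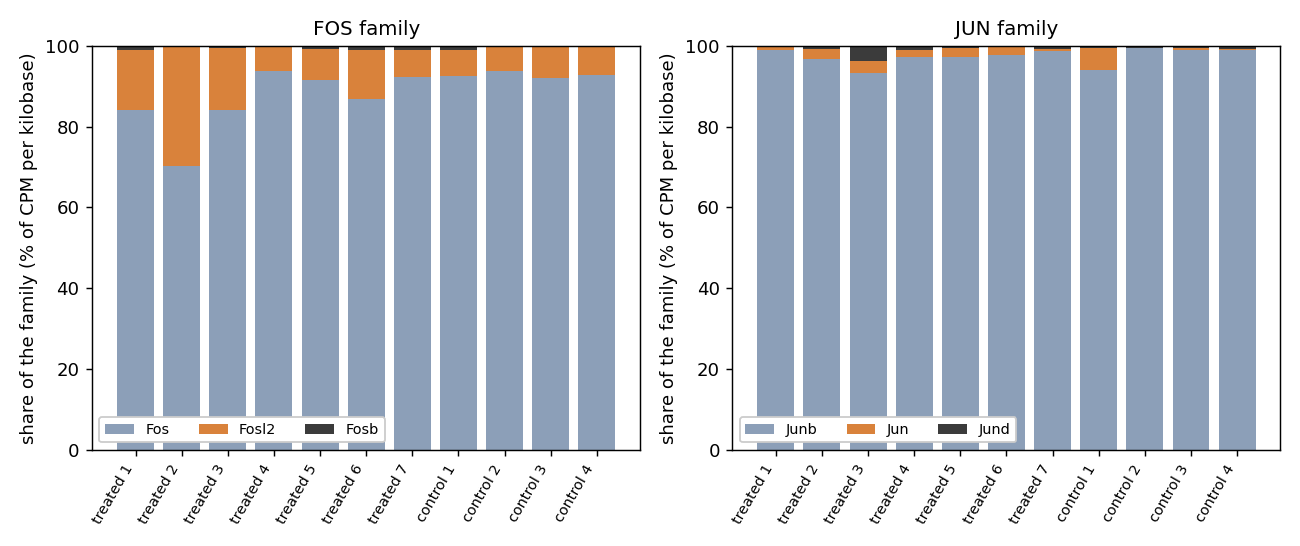
Share of each FOS family gene (left) and JUN family gene (right) in the family's summed CPM per kilobase, in percent, as stacked bars for each of the 11 libraries. Fos makes up 70.3% to 93.8% of the FOS bars and Junb 93.4% to 99.5% of the JUN bars.

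By level per kilobase, 1 gene dominated each family. This scale does not adjust for GC content, which was highest for Jund (67.1%). Junb made up 93.4% to 99.1% of the JUN family level per kilobase in treated and 94.1% to 99.5% in control libraries. Fos made up 70.3% to 93.7% of the FOS family level in treated and 92.0% to 93.8% in control libraries. The rest was mostly Fosl2, with a share of 6.26% to 29.7% (median 12.2%) in treated and 6.23% to 8% (median 6.69%) in control libraries. The 4 controls lay close together for this share, 4 of the 7 treated libraries lay above all of them at 12.2% or more, and the ranges overlapped. The difference was not tested. Treated 2, with the highest share, held both the lowest Fos (89.9 CPM) and the highest Fosl2 (156 CPM). Once length and GC content were offset, the log2 fold change of Fosl2 was -0.01 in place of 0.52. The summed JUN level was 1.34 to 8.77 times the FOS level in treated and 2.87 to 6.51 times in control libraries.

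Ier2 (chromosome 8, 84661331 to 84662854, 1 exon), a nuclear protein of the immediate early response, was the steadiest member. It stood at 552, 1050, 610 and 934 CPM in controls 1 to 4 and from 435 to 850 CPM with a median of 664 CPM in treated libraries. Controls 2 and 4 lay above every treated library, while controls 1 and 3 lay in the lower part of the treated range. Its log2 fold change was -0.25 ± 0.24 (SE; adjusted p = 0.921, edgeR). Its interval, from 0.59-fold to 1.20-fold, was the narrowest of the 10 and bounds the size of any difference best.

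Dusp1 (chromosome 17, 26505590 to 26562128), a phosphatase that switches off p38 and JNK and is itself induced by them, stood at 3240, 3630, 898 and 4140 CPM in controls 1 to 4. In treated libraries it ran from 1100 to 7000 CPM with a median of 2570 CPM. Treated 7 was the highest and control 3 the lowest library, 7.80-fold apart. The log2 fold change was 0.06 ± 0.46 (SE; interval -0.92 to 1.05, adjusted p = 0.991, edgeR). Dusp1 overlaps Ergic1 on the opposite strand, and as no strand setting is given, reads of the overlap cannot be assigned. Ergic1 stood at 49.6 ± 24.0 CPM (SD, n = 7) in treated and 50.9 ± 6.22 CPM (SD, n = 4) in control libraries.

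Atf3 (chromosome 1, 191170296 to 191218039), a bZIP repressor induced by stress, stood at 5.71, 0, 58.1 and 29.4 CPM in controls 1 to 4. In treated libraries it ran from 2.75 to 29.0 CPM with a median of 15.3 CPM. Controls 3 and 4, the libraries with the highest globin shares, were the highest of all 11, and control 2 was the lowest, with 0 counts of 6471344 (3 counts would be 0.424 CPM). Between groups Atf3 differed by -0.56 ± 0.97 on the log2 scale (SE; adjusted p = 0.952, edgeR), and by 2.47 without controls 3 and 4. The part of the globin-rich libraries' other RNA in the Atf3 level was not tested. In bulk libraries such as these, fewer cells expressing a gene and less RNA per cell cannot be told apart.

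Egr1, a zinc finger factor that binds GC-rich sites and recruits its own repressors NAB1 and NAB2, was detected in all 7 treated and 2 of 4 control libraries. It stood at 5.83, 0, 0.401 and 0 CPM in controls 1 to 4 and from 1.98 to 12.5 CPM with a median of 5.90 CPM in treated libraries. Controls 2 to 4 lay below every treated library, and control 1 lay within their range. The log2 fold change of 1.85 had an interval from -1.03 to 4.73 (adjusted p = 0.866, edgeR). It was 5.54 without control 1, again short of the threshold (adjusted p = 0.278, edgeR, the smallest that any member had under any alternative run). A single count in control 3, and zeros in controls 2 and 4, set that value, so its size is not well determined. Without the globin-rich controls 3 and 4 the log2 fold change of Egr1 was 1.03. With the letters of the header identifiers as a covariate it was 0.29.

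**Figure D3:**
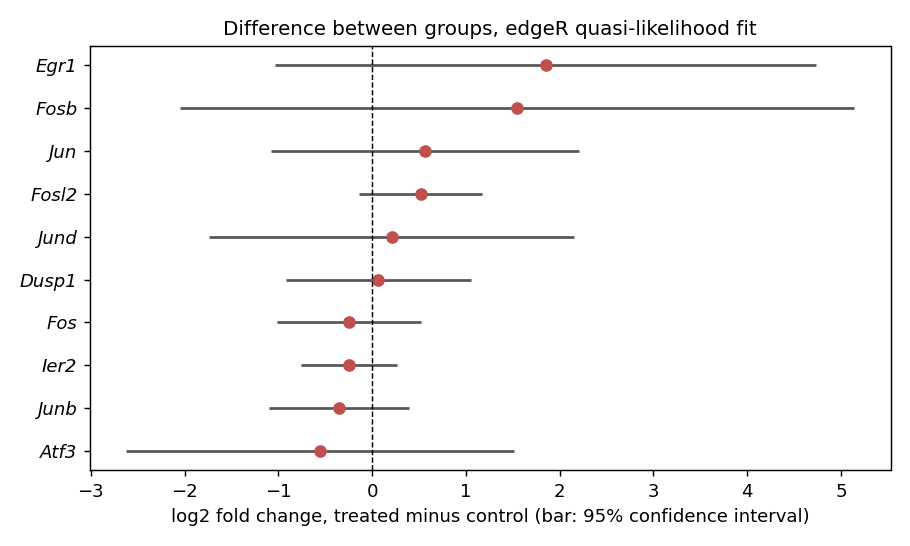
Log2 fold change of each member, treated minus control (points), with its 95% confidence interval (bars) from the edgeR fit; the dashed line marks no difference. All 10 intervals include 0, and they are narrowest for Ier2 (-0.76 to 0.26) and widest for Fosb (-2.05 to 5.14).

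Spread within the groups differed between members. As SD of log2(CPM + 1) within groups, Ier2 (0.37), Fos (0.64), Junb (0.64) and Dusp1 (0.90) compare with a median of 0.45 over the 1672 tested genes with a mean of 100 CPM or more. Of these 4 members, Dusp1 thus varied most between libraries of a group. As each library was a different mouse, spread between mice and spread between library preparations cannot be told apart. Fosl2 (0.50) had a mean under that bound, and the median over all 11389 tested genes was 0.84. Jund (0.75), Egr1 (1.01), Jun (1.25), Fosb (1.35) and Atf3 (1.71) compare with a median of 1.19 over 5493 tested genes with a mean of 2 to 25 CPM.

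As a set, the members did not rise and fall together from library to library. Over 45 pairs, the Pearson correlation of log2(CPM + 1) across 11 libraries with group means removed had a median of 0.02, with 4 pairs above 0.5 and 3 below -0.5. The highest were Ier2 with Dusp1 (0.69), Fos with Dusp1 (0.58), Jun with Egr1 (0.53) and Junb with Ier2 (0.52). The lowest were Junb with Egr1 (-0.83), Jun with Ier2 (-0.68) and Fos with Jun (-0.57). Among Fos, Junb, Ier2 and Dusp1, the members with the highest levels per length, every pair was positive, from 0.07 (Fos with Junb) to 0.69. Fosb, Jun, Jund, Egr1 and Atf3 had means under 50 CPM in both groups, so counting error enters their correlations more. These values describe libraries that share depth and composition, and carry no test.

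**Figure D4:**
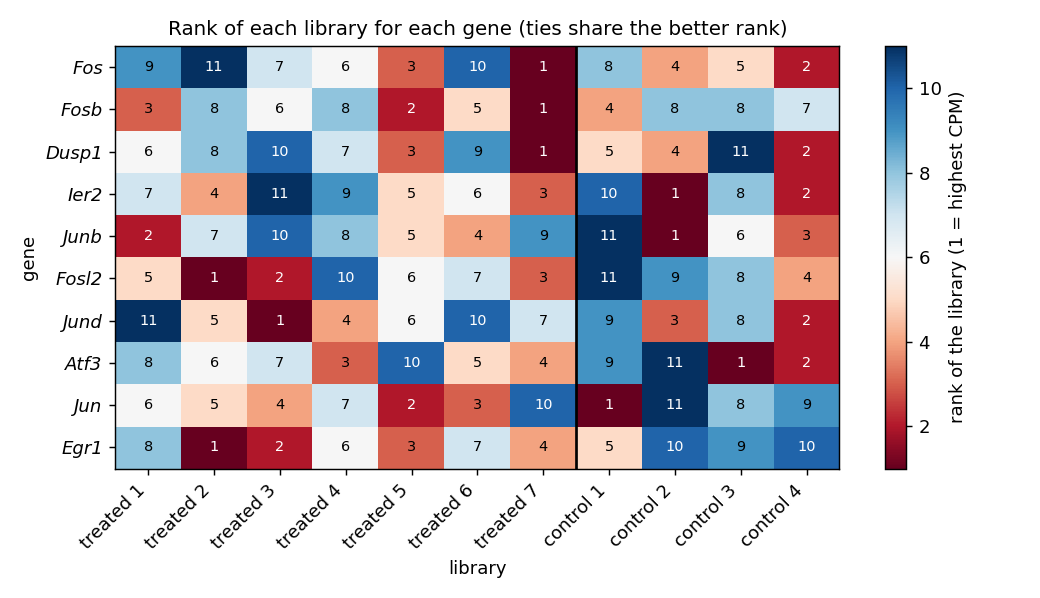
Rank of each of the 11 libraries (columns, treated left of the black line) for each gene (rows), where 1 is the highest CPM and red is high. Treated 7 has rank 1 for Fos, Fosb and Dusp1 but rank 10 for Jun, and control 2 has rank 1 for Ier2 and Junb but rank 11 for Jun and Atf3.

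Single libraries show the same split. Control 2 held the highest Junb and Ier2 and had 1698 counts of Fos and 25622 of Dusp1, yet 12 counts of Jun and 0 of Fosb, Egr1 and Atf3. Treated 7 was the highest library for 3 members and ranked 10 of 11 for Jun. Control 4 was among the top 3 libraries for 6 members and treated 5 for 5 members. Control 2 also had the lowest summed monocyte and macrophage markers (1010 CPM of the library total), followed by treated 7 (2060 CPM) and control 1 (2220 CPM). Jun was also lowest in control 2 (1.70 CPM) and next lowest in treated 7 (3.29 CPM), but highest in control 1 (38.3 CPM). Treated 5 and treated 6, with marker sums of 9470 and 18100 CPM, had 32.2 and 29.0 CPM of Jun. Control 3, with a marker sum of 12900 CPM, had 8.82 CPM of Jun. The part of other cells in the members' levels was not tested.

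The wider pathway was read from 8 lists of further genes, in which 0 genes passed the edgeR test in either direction, as among all genes. Of 23 tested immediate early genes outside the members, 18 had a fold change above 0 (median log2 fold change 0.25, against 0.03 for all genes), and 2 had an unadjusted p under 0.05. As shares of all genes, 51.8% had a fold change above 0 and 6.82% an unadjusted p under 0.05, and the counts of each list are to be read against these. The lists were counted in the main fit only, not with length and GC content offset. Klf6, a Kruppel-like factor, stood at 1440 ± 575 CPM (SD, n = 7) in the treated group and 1250 ± 440 CPM in the control group (SD, n = 4), and Btg2, an antiproliferative gene, at 392 ± 61.9 and 452 ± 128 CPM. Zfp36, which encodes tristetraprolin, a protein that destabilises short-lived mRNAs, stood at 311 ± 53.4 and 280 ± 74.1 CPM.

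Egr2, a close relative of Egr1, stood at 1.01, 0, 0 and 0 CPM in controls 1 to 4 and from 0.147 to 9.67 CPM in treated libraries. As with Egr1, control 1 was the highest control, and the treated range reached below it through treated 3. The log2 fold change of Egr2 was 3.86 ± 1.52 (SE; adjusted p = 0.634, edgeR). Without control 1 it was 7.81, and as the other 3 controls had 0 counts, its size is not well determined. Nr4a1, an orphan nuclear receptor induced by antigen receptor and growth signals, stood at 18.0, 0, 83.3 and 120 CPM in controls 1 to 4 and from 20.9 to 423 CPM in treated libraries (log2 fold change 1.68 ± 1.12, SE, adjusted p = 0.852, edgeR). Control 2, where Egr1, Fosb and Atf3 had 0 counts, also had none of Egr2, Nr4a1 and Dusp2.

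**Figure D5:**
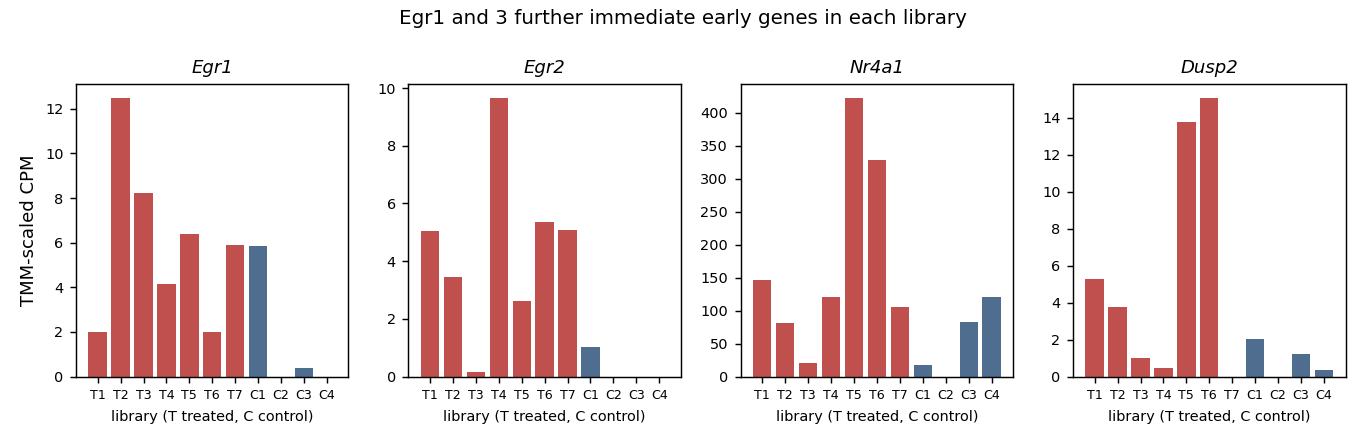
TMM-scaled CPM (vertical axes, from 0) of Egr1, Egr2, Nr4a1 and Dusp2 in the 7 treated (red, T1 to T7) and 4 control libraries (blue, C1 to C4). Control 2 is at 0 for all 4 genes, and the highest treated library differs between Egr1 (treated 2), Egr2 (treated 4), Nr4a1 (treated 5) and Dusp2 (treated 6).

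Other bZIP factors were balanced, with 13 of 25 tested genes above 0 (median 0.07) and 2 with an unadjusted p under 0.05. Nfe2, the erythroid and megakaryocyte partner of small MAF proteins, stood at 196 ± 35.1 CPM (SD, n = 7) in the treated group and 239 ± 74.5 CPM in the control group (SD, n = 4), and Nfe2l2, the regulator of antioxidant genes, at 199 ± 57.7 and 190 ± 99.5 CPM. Batf, which pairs with JUN proteins in lymphocytes, stood at 61.8 ± 12.5 and 79.4 ± 31.8 CPM.

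Upstream of AP-1, 18 of 24 tested MAP kinase genes had a fold change above 0 (median 0.31), and 5 of the 24 had an unadjusted p under 0.05, against 51.8% and 6.82% of all genes. Mapk14, which encodes p38 alpha, stood at 190 ± 45.9 CPM (SD, n = 7) in the treated group and 156 ± 29.4 CPM in the control group (SD, n = 4), and Mapk8, which encodes JNK1, at 11.8 ± 12.5 and 7.22 ± 10.6 CPM. Rps6ka1, an ERK-activated kinase, stood at 355 ± 122 and 267 ± 102 CPM, and Map2k3, an activator of p38, at 246 ± 101 and 271 ± 145 CPM.

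Of the serum response factor and its partners, 4 of 6 tested genes were above 0 (median 0.42) and 0 had an unadjusted p under 0.05. Srf itself stood at 14.7 ± 8.51 CPM (SD, n = 7) in the treated group and 20.4 ± 20.4 CPM in the control group (SD, n = 4). Its actin-regulated partner Mrtfa stood at 161 ± 68.2 and 129 ± 30.4 CPM, and the ERK-regulated partner Elk4 at 45.8 ± 15.1 and 32.2 ± 14.9 CPM.

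Of 10 further MAP kinase phosphatases and feedback inhibitors, 4 were above 0 (median -0.22) and 0 had an unadjusted p under 0.05. Dusp6, an ERK phosphatase, stood at 579 ± 261 CPM (SD, n = 7) in the treated group and 443 ± 145 CPM in the control group (SD, n = 4), and Dusp3 at 53.2 ± 20.8 and 71.7 ± 72.9 CPM. Dusp2, a nuclear phosphatase, stood at 2.03, 0, 1.20 and 0.364 CPM in controls 1 to 4 and from 0 to 15.1 CPM in treated libraries (log2 fold change 2.61 ± 1.58, SE, adjusted p = 0.823, edgeR).

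Genes that repress or degrade AP-1 and EGR proteins had 6 of 8 fold changes above 0 (median 0.30), 1 of the 8 with an unadjusted p under 0.05. The ubiquitin ligase Itch, which marks JUN proteins for degradation, stood at 98.8 ± 21.1 CPM (SD, n = 7) in the treated group and 50.7 ± 35.8 CPM in the control group (SD, n = 4), and the corepressor Ncor1 at 293 ± 118 and 205 ± 74.5 CPM. Among genes known as AP-1 targets in myeloid cells, 8 of 12 were above 0 (median 0.30), and 1 of the 12 had an unadjusted p under 0.05. Cd44, an adhesion receptor, stood at 978 ± 239 and 769 ± 133 CPM, and Plaur, the urokinase receptor, at 651 ± 163 and 538 ± 71.8 CPM.

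Heat shock genes, which respond to protein damage, had 8 of 10 fold changes above 0, the highest median of the 8 lists (0.58), and 4 of the 10 genes had an unadjusted p under 0.05, against 51.8% and 6.82% of all genes. Hsp90ab1 stood at 459 ± 152 CPM (SD, n = 7) in the treated group and 258 ± 53.0 CPM in the control group (SD, n = 4), a difference of 0.83 ± 0.27 on the log2 scale (SE; adjusted p = 0.626, edgeR). Hspa8 stood at 480 ± 155 and 295 ± 80.3 CPM. Once length and GC content were offset, the log2 fold change of Hsp90ab1 was 0.57 in place of 0.83, and that of Hspa8 0.35 in place of 0.705. For Hsp90ab1, treated 1 and treated 2 lay within or next to the control range of 198 to 307 CPM, at 298 and 313 CPM.

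The order of libraries of the members' mean was compared with that of all other genes. Among 7738 tested genes with a mean of 10 CPM or more, 4 of the 5 highest Pearson correlations with the members' mean log2 level, over 11 libraries with group means removed, were those of Tmx4 (0.92), Zbtb4 (0.88), Tlk2 (0.87) and Glg1 (0.86). Since the members as a set shared no common order, this mean stands for no single gene of them. With group means kept, Tmx4 went from rank 1 to rank 262, while Glg1 ranked 1, Zbtb4 46 and Tlk2 140. As the highest of 7738 values over 11 libraries, these correlations are large in part by selection, and carry no test. Glg1, a Golgi sialoglycoprotein, had groups that did not overlap, at 117 ± 25.6 CPM (SD, n = 7) in the treated group and 53.3 ± 25.7 CPM in the control group (SD, n = 4; adjusted p = 0.626, edgeR).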

How the data were processed

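Counts per Ensembl gene were deposited by the authors as raw values, 1 column per library. The submitters' processing notes name HISAT2 2.10, SAMtools 1.15.1, bcl2fastq 2.20.0.422 and the build GRCm38. Which counter, strand setting and annotation the authors used is not given in the sources used here. The row naming no gene held 0 counts and was left out. Exon lengths, GC content and overlaps came from GENCODE M21 (GRCm38), which matched 55226 of 55486 genes.

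Groups followed the sample titles, and each library was a different mouse. All genes were fitted together with edgeR 4.0.16 (R 4.3.3): filterByExpr, TMM scaling, the quasi-likelihood test with robust dispersions, and Benjamini-Hochberg adjustment over 11389 genes at 0.05. The SE is the log2 fold change divided by the square root of F, and intervals are at 95%, from the t distribution with the test's degrees of freedom. The fit was also run on simulated counts, in which only large changes were planted, and only in genes above the lowest levels. That run was not set up to measure power for the differences of the members. Alternatives used DESeq2 1.42.0, limma-voom 3.58.1, other scalings, filters and covariates, a length and GC offset by loess, and left-out libraries. Reads had no molecular identifiers, so limits set by 3 counts cover counting error only.

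Members and lists were chosen with earlier results of these data known. Named genes were the members, the 2 genes of each list with the highest CPM, which is not scaled by length, 11 further genes chosen by name, and the 5 genes most like the members. Promoter letters are from RefSeq (GRCm38.p6), for 8 of the 10 members. Some genes chosen by this rule are not reported here.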

Additional observations from a re-analysis of the deposited data

Results flagged for a closer look

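Among 41 genes, each checked in both groups (82 groups), 7 values lay far from the rest of their group by Dixon's criterion. The members gave 2 of these 7 values, over 20 groups. Chance meets the criterion in about 1 in 20 groups if values are normally spread. CPM were used without logs, so that rate need not hold here, least of all for genes near 0. Jund in treated 3 (14.3 CPM) lay above the other treated libraries, the next being at 4.36 CPM. Egr1 in control 1 (5.83 CPM) lay above the other controls, of which the next was at 0.401 CPM, and Egr2 in the same library (1.01 CPM) was the only control value above 0. Treated 7 lay above the other treated libraries for Klf6 (2680 CPM), Nfe2 (267 CPM) and Zbtb4 (68.4 CPM). Fosl1 in treated 2 (1.74 CPM) was the only value of that gene above 0.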

How the results depend on the processing

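No alternative called a member or another gene chosen by the naming rule, and the count of genes called moved only with DESeq2, from 0 to 60 higher and from 0 to 22 lower. Of 229 values of members under alternatives, 208 kept their direction and 21 turned; of 688 values of the other genes chosen by that rule, 34 turned. Fosb did not pass the stricter filter and has no value there. As log2 fold changes: without controls 3 and 4, Fos turned to 0.016, Dusp1 to -0.11, Atf3 to 2.47, Map2k3 to 0.76, Dusp3 to 2.03 and Srf to 1.99. With detected genes as a covariate, Fos turned to 0.086, Jund to -0.24, Atf3 to 1.07, Map2k3 to 0.52, Dusp3 to 0.78 and Srf to 1.31. By limma-voom, Jund turned to -0.12, Atf3 to 2.32, Dusp1 to -0.11, Map2k3 to 0.18, Dusp3 to 1.32, Srf to 1.25 and Tlk2 to 0.054. With the identifier letters, Junb turned to 0.46, Jund to -1.31, Dusp1 to -0.0013, Btg2 to 0.12, Map2k3 to 0.63 and Zbtb4 to -0.14. With the length and GC offset, Fosl2 turned to -0.0057, Jund to -0.16, Dusp1 to -0.12, Nfe2l2 to -0.28, Klf6 to -0.0056, Mrtfa to -0.175, Zfp36 to -0.17, Mapk14 to -0.066 and Zbtb4 to -0.35. With the replicate block, Atf3 turned to 0.63, Dusp1 to -0.29, Dusp6 to -0.090, Dusp3 to 0.35 and Srf to 0.56. The numbers name different mice and do not pair them: deviations of same-numbered libraries correlated at -0.12 to 0.02, and the block left the count of calls at 0. Leaving out 1 library at a time turned the direction of Jund (-0.39 to 0.56), Atf3 (-0.97 to 0.49), Dusp1 (-0.27 to 0.28), Nfe2l2 (-0.11 to 0.49), Klf6 (-0.020 to 0.34), Map2k3 (-0.39 to 0.15), Dusp3 (-0.81 to 0.43), Srf (-0.85 to 0.32), Zbtb4 (-0.18 to 0.25) and Tlk2 (-0.70 to 0.27). The cause of these shifts was not tested. Ier2, Jun, Egr1 and Fosb kept their direction under every alternative run, while their values ran from -0.38 to -0.055, 0.0064 to 2.05, 0.29 to 5.54 and 0.041 to 3.58. Fosb, Egr1 and Atf3 had 0 counts in 1 or more libraries, where 3 counts would be 0.354 to 1.20 CPM.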
